A study of Homo sapiens with 12 samples.

Results

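The chloride intracellular channel (CLIC) family consists of the genes CLIC1, CLIC2, CLIC3, CLIC4, CLIC5 and CLIC6, which were taken by gene name from the deposited expression table. All 6 were present among its 58302 genes. RNA-sequencing had been performed on 3 established human prostate cell lines, with 4 libraries each. BPH-1 is an immortalised line of benign prostate epithelium and served as the benign side of the comparison, while DU145 and PC3 are PCa (prostate cancer) cell lines first grown from metastases. All libraries were labelled wild type and no treatment was named, all lines were grown in the same serum-supplemented medium, and the study compared BPH-1 with PC3 to find chloride channel genes that differ in expression. Each group is a single line, so a difference between groups is a difference between lines. Nothing states that the libraries of a line came from separate cultures, and p-values measure the spread between these libraries, which may be technical.

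CLIC proteins differ from classical chloride channels because they exist in a soluble and a membrane-bound form. The soluble form has the fold of glutathione transferases, with a glutaredoxin-like site, and shows thiol oxidoreductase activity in vitro. Membrane insertion and ion conductance have been described mostly in artificial membranes, and much of the known cell biology concerns the cortical actin skeleton, ezrin-radixin-moesin linker proteins, vesicle traffic and tube formation. CLIC1 and CLIC4 are widely expressed, CLIC3 acts in the recycling of integrins and MMP14 from late endosomes, CLIC5 organises stereocilia and podocyte foot processes, CLIC2 binds ryanodine receptors, and CLIC6 is found in secretory epithelia such as the choroid plexus.

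Values are given in FPKM, which divides the reads of a gene by its length and by the total of the library. Levels of different members can thus be compared roughly, because the length used counts overlapping exons more than once. It was 7068 bases for CLIC4, 2689 for CLIC1, 1929 for CLIC3 and 3860 for CLIC6. With overlapping exons merged these are 4495, 1942, 1177 and 3860. Library depth, recovered from the steps between low values, lay between 12950664 and 16309560 reads with a median of 15341002. Between 92.0% and 93.4% of the low values in a library were whole reads to within 0.01 of a read. KRT8 and KRT18 were expressed in all lines. BPH-1 carried the basal markers KRT5, KRT14 and TP63, with a summed FPKM of 298 to 427 against 0 to 0.994 in DU145 and 0 to 0.0645 in PC3. Among luminal markers, KLK2 and KLK3 were at or near 0 in every line, while HOXB13 stood at 74.3 ± 5.18 FPKM (SD, n = 4) in PC3, 1.61 ± 0.260 in BPH-1 and 0 in DU145, and TMPRSS2 at 2.38 ± 0.497 in PC3. EPCAM was 0.376 ± 0.168 FPKM (SD, n = 4) in DU145 against 60.8 in BPH-1 and 9.10 in PC3, and CDH1 was low in both PCa lines, with 0.18 in DU145 and 0.786 in PC3 against 28.4 in BPH-1. KRT19 was highest in PC3 with 232. In DU145, libraries 1 and 2 held 11 genes with at least 50 reads that had 0 reads in libraries 3 and 4, and all 11 were also read in every BPH-1 library. They include the white blood cell genes PTPRC, LYZ and FCGR3B. PTPRC had 275 and 256 reads in DU145 libraries 1 and 2, 225 to 295 reads in BPH-1 and 0 reads in PC3. In addition, DU145 libraries 1 and 3, DU145 libraries 2 and 4, and PC3 library 4 stood apart in how their values followed gene GC content. The values of CLIC1 and CLIC4 are also given without these libraries.

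The members fell into 3 levels in these cells. CLIC1 was the most abundant in all 12 libraries and lay between percentiles 98.9 and 99.4 of 11891 genes with at least 50 reads on average. CLIC4 came next, between percentiles 88.9 and 93.0, and CLIC3 lay in the middle of the range, between percentiles 39.1 and 46.1. CLIC2, CLIC5 and CLIC6 were at or close to 0. CLIC1 made up between 65.5% and 96.6% of the summed family FPKM, CLIC4 between 2.1% and 29.7%, and CLIC3 between 0.452% and 4.42%. The order CLIC1, CLIC4, CLIC3 held in every library. With overlapping exons merged in the gene length, the ratio of CLIC1 to CLIC4 still lay between 1.95 and 40.5, against 2.21 and 46.0 with the length the authors used.

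The sequences ahead of the transcription starts are shown for the most abundant members, CLIC1 and CLIC4, and for CLIC2, which was barely read. They are the parts of the 250 bases before the RefSeq start (GRCh38.p14) that lie in no exon of GENCODE 29, written 5′ to 3′ on the strand of the gene, with matches on either strand to GGGCGG (the Sp1-type GC box) or TATAAA, and to the AP-1-type motif TGANTCA, in capitals. CLIC1 is shown for chr6:31736573-31736780 (minus strand), CLIC4 for chr1:24745197-24745356 (plus strand) and CLIC2 for chrX:155334658-155334857 (minus strand). The CLIC1 stretch lies inside the gene span of the table, since other transcripts start further upstream.
CLIC1: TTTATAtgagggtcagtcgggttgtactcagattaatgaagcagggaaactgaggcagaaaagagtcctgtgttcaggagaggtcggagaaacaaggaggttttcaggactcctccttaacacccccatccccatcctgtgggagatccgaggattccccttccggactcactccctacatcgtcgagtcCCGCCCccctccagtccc
CLIC4: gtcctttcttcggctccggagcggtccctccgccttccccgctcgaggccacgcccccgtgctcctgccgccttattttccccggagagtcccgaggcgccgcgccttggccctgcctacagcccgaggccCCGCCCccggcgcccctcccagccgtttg
CLIC2: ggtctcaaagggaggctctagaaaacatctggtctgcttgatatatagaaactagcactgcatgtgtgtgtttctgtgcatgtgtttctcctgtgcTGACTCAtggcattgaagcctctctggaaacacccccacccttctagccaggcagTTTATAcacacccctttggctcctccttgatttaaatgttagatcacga

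RefSeq start windows were matched for 5 of the 6 members, with 3 windows for CLIC5. Over the full 250 bases, the CLIC4 window was the richest in GC among those of CLIC1 to CLIC4, with 74.8% GC, 30 CpG and 2 GC boxes. The CLIC1 window had 57.6% GC, 11 CpG, 2 GC boxes, 1 TATAAA and 1 TGANTCA, and the CLIC3 window 70.4% GC, 15 CpG and 3 GC boxes. The CLIC2 window had 46.4% GC and 2 CpG, with 1 TATAAA, 1 TGANTCA and no GC box. The observed over expected CpG was 0.863 for CLIC4, 0.531 for CLIC1, 0.487 for CLIC3 and 0.149 for CLIC2, beside a median of 0.558 over 35116 windows of the same length. CACGTG was in none of them. Among all windows, 42.6% held GGGCGG, 10.7% TATAAA, 6.57% TGANTCA and 6.34% CACGTG, and the matches are a description of these letters.

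CLIC1 (ENSG00000213719, chromosome 6, 31730581 to 31739763, minus strand of GRCh38) encodes the founding soluble member, a redox-sensitive protein of cytoplasm and nucleus. The 4 BPH-1 libraries had an FPKM of 87.7, 87.6, 98.3 and 133. The 4 DU145 libraries had 192, 119, 267 and 160. The 4 PC3 libraries had 111, 123, 130 and 158. DU145 was the highest line, with only library 2 below a BPH-1 library, and BPH-1 library 4 lay inside the range of PC3. Means were 102 ± 21.5 (SD, n = 4) in BPH-1, 130 ± 20.0 (SD, n = 4) in PC3 and 185 ± 62.8 (SD, n = 4) in DU145, which is the order of the lines from lowest to highest.

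In DU145 against BPH-1, CLIC1 was higher, with a log2 fold change of 0.81 (standard error 0.25, 95% confidence interval 0.26 to 1.37, adjusted p = 0.0165 from limma on log2(FPKM + 1) with Benjamini-Hochberg adjustment over 17072 genes). It was the only one of the 3 tested members past an adjusted p of 0.05. In that comparison 62.6% of all tested genes were past the threshold, 30.3% higher and 32.3% lower in DU145, and 1 of 3 members is a smaller share than that of all genes. A two-sided exact permutation test of CLIC1 alone gave p = 0.0571, where 4 libraries against 4 can reach 0.0286. The call was lost when all libraries were brought to one FPKM total (0.57 on the log2 scale, adjusted p = 0.0706) and with the GC trend of each library divided out (0.41, adjusted p = 0.0783). It was also lost without DU145 libraries 1 and 3 (0.46, adjusted p = 0.0958), while without libraries 2 and 4 CLIC1 was higher by 1.17 (adjusted p = 0.00198). Libraries 1 and 3 hold the highest CLIC1 values of DU145 and libraries 2 and 4 the lowest. These values and p-values thus follow from the choice of libraries, which was made after the data were seen. Without DU145 libraries 1 and 2, which carried the white blood cell genes, CLIC1 was higher by 1.04 (adjusted p = 0.0151), and within DU145 the libraries holding those genes had 192 and 119 FPKM of CLIC1 against 267 and 160 in the others. All BPH-1 libraries carried the genes, so their part in the levels of that line cannot be told apart from the line.

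In PC3 against BPH-1, the log2 fold change of CLIC1 was 0.37 (standard error 0.16, 95% confidence interval 0.00 to 0.73). The limma p was 0.0479 before adjustment and 0.0683 after it. Of the 16346 genes tested here, 67.6% were past the threshold, 27.2% higher and 40.5% lower in PC3, and limma called 0 of the 3 tested CLIC members, with 1 at an unadjusted p under 0.05. Without BPH-1 library 4, CLIC1 passed the threshold with 0.50 (adjusted p = 0.0122). It also passed with upper-quartile scaling (0.47, adjusted p = 0.0283) and with median-of-ratios scaling (0.50, adjusted p = 0.0194), and with the replicate number as a block (0.37, adjusted p = 0.0161). With all libraries at one FPKM total it was 0.10 (adjusted p = 0.612), with the GC correction 0.10 (adjusted p = 0.556) and without PC3 library 4 0.27 (adjusted p = 0.151). PC3 and DU145 differed by -0.45 (standard error 0.24, 95% confidence interval -0.99 to 0.10, adjusted p = 0.157). Neighbouring lines in the order BPH-1, PC3, DU145 thus missed the adjusted threshold, although the interval of PC3 against BPH-1 lay just above 0. In PC3 against DU145, limma called 48.2% of 16209 genes, 20.0% higher and 28.3% lower in PC3, and 0 of the 3 tested members, none of which had an unadjusted p under 0.05. Without DU145 library 2, however, CLIC1 was lower in PC3 by -0.64 (adjusted p = 0.0343). It was -0.80 without DU145 libraries 2 and 4, -0.09 without libraries 1 and 3, -0.67 without libraries 1 and 2, and -0.54 without PC3 library 4. Libraries 2 and 4 hold the lowest CLIC1 values of DU145 and libraries 1 and 3 the highest, so -0.80 and -0.09 follow from that choice.

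**Figure D1:**
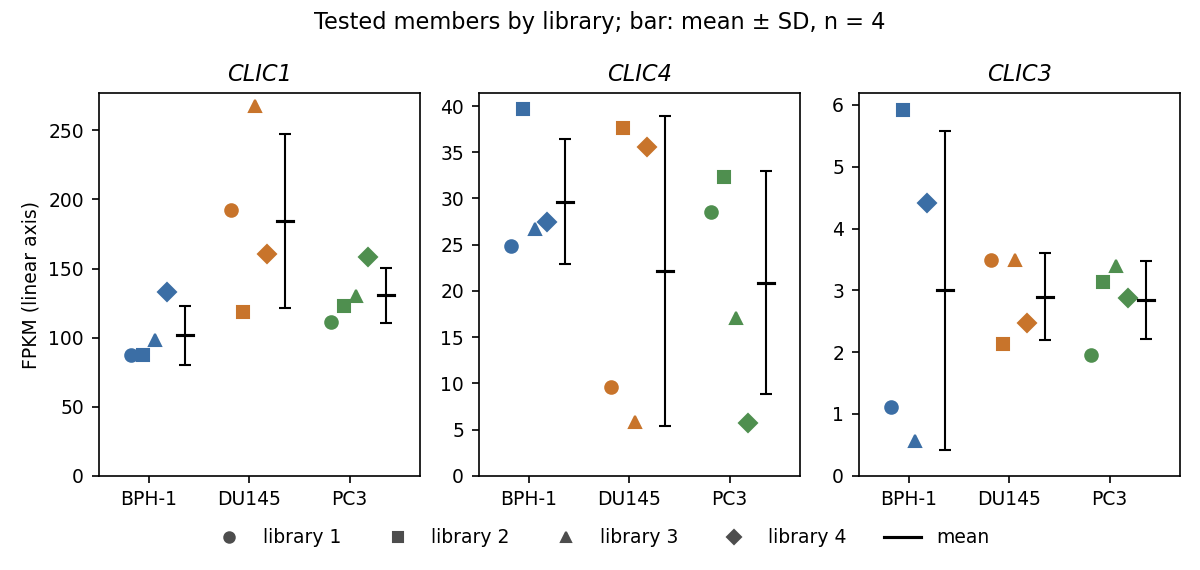
FPKM (vertical axis, linear, from 0) of CLIC1, CLIC4 and CLIC3 in the 4 libraries of BPH-1, DU145 and PC3, with 1 symbol per library number and the mean ± SD (n = 4) beside each group. CLIC1 is highest in DU145 library 3 at 267, CLIC4 splits DU145 into libraries at 9.63 and 5.81 and libraries at 37.7 and 35.6, and CLIC3 spreads from 0.568 to 5.91 within BPH-1.

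CLIC4 (ENSG00000169504, chromosome 1, 24745357 to 24844324, plus strand) encodes a member that follows RhoA and integrin signals at the cell cortex and moves to the nucleus under stress. The 4 BPH-1 libraries had an FPKM of 24.8, 39.6, 26.7 and 27.5. The 4 DU145 libraries had 9.63, 37.7, 5.81 and 35.6. The 4 PC3 libraries had 28.5, 32.4, 17.0 and 5.66. The lines overlapped, and the spread was within the PCa lines: the highest DU145 library was 6.48 times the lowest and the highest PC3 library 5.72 times the lowest, against 1.60 times in BPH-1. Among genes compared within a line, 10.8% were at least as wide as CLIC4 in DU145, 4.79% in PC3 and 31.1% in BPH-1.

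Mean CLIC4 was 29.7 ± 6.74 (SD, n = 4) in BPH-1, 22.2 ± 16.8 (SD, n = 4) in DU145 and 20.9 ± 12.1 (SD, n = 4) in PC3, and no pair of lines differed beyond this spread. The log2 fold change was -0.70 in PC3 against BPH-1 (95% confidence interval -1.71 to 0.30, limma adjusted p = 0.190) and -0.75 in DU145 against BPH-1 (-1.92 to 0.41, limma adjusted p = 0.230). Both comparisons share the BPH-1 libraries. In PC3 against DU145 it was 0.05 (-1.49 to 1.59, limma adjusted p = 0.957), with values of -1.02 without DU145 libraries 1 and 3, 1.12 without libraries 2 and 4, 0.23 without libraries 1 and 2, and 0.54 without PC3 library 4. With the GC trend divided out, which also evens out trends between lines and took mean CLIC4 from 29.7 to 15.9 FPKM in BPH-1, from 22.2 to 24.4 in DU145 and from 20.9 to 25.1 in PC3, the values against BPH-1 turned positive, 0.56 in PC3 (limma adjusted p = 0.124) and 0.54 in DU145 (limma adjusted p = 0.123). Without DU145 libraries 2 and 4, CLIC4 was lower in DU145 than in BPH-1 by -1.83 (limma adjusted p = 0.00038), without libraries 1 and 3 its value was 0.32 (limma adjusted p = 0.181) and without libraries 1 and 2 it was -0.93 (limma adjusted p = 0.210). Libraries 2 and 4 hold the high CLIC4 values of DU145 and libraries 1 and 3 the low ones. Values and p-values without either pair, also in PC3 against DU145, thus follow from the choice of libraries. They are no test of a difference between lines, and the pairs were chosen after the data were seen. Without PC3 library 4 the value of PC3 against BPH-1 was -0.21 (limma adjusted p = 0.451), and without DU145 library 3 that of DU145 was -0.29 (limma adjusted p = 0.572).

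In DU145 and PC3, the libraries with the least CLIC4 were those in which GC-rich genes read high for their line. CLIC4 transcripts have a GC content of 37.2%, against 53.3% for CLIC1 and 68.3% for CLIC3. For each library, the log2 deviation of 11891 genes from the mean of their line was followed against GC content. It rose by 0.186 and 0.340 per 10 points of GC in DU145 libraries 1 and 3, and its slope was -0.315 and -0.211 in libraries 2 and 4. In PC3 it was -0.146, -0.108, 0.0313 and 0.223 from library 1 to 4, and in BPH-1 it stayed between -0.0418 and 0.0304. CLIC4 in DU145 fell in exactly the order in which these slopes rose, and in PC3 the library with the steepest slope, library 4, had the least CLIC4. CLIC1 went the opposite way, its order in DU145 and in PC3 being that of the slopes. Dividing the trend out brought the highest over lowest CLIC4 library to 2.32 in DU145 and 2.94 in PC3. In BPH-1 it was 1.66, around a mean that the same step had lowered. Whether the slopes set the CLIC4 values was not tested.

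**Figure D2:**
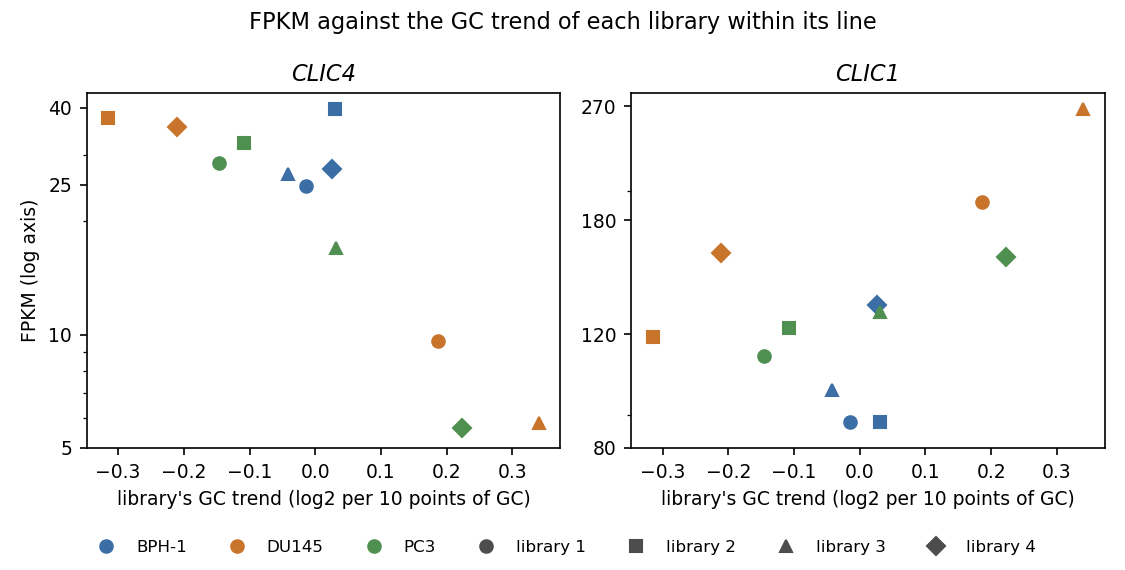
FPKM (vertical axis, log scale) of CLIC4 and CLIC1 against the slope of each library's log2 deviation from its line per 10 points of gene GC content (horizontal axis), 1 point per library. CLIC4 goes from 37.7 at a slope of -0.315 to 5.81 at 0.340 within DU145, while CLIC1 goes from 119 to 267 over the same libraries, and the 4 BPH-1 libraries have slopes near 0.

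The balance of the abundant members differed between libraries of the same line. The ratio of CLIC1 to CLIC4 was 3.53, 2.21, 3.68 and 4.84 in BPH-1. In DU145 it was 19.9, 3.15, 46.0 and 4.50. In PC3 it was 3.89, 3.79, 7.64 and 27.9, with library 4 far from the others. The mean ratio was 3.56 for BPH-1, 10.8 for PC3 and 18.4 for DU145. After division by the GC trend, it lay between 3.61 and 13.7, and the order of the means turned, with 7.87 in BPH-1, 7.72 in DU145 and 6.01 in PC3.

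CLIC3 (ENSG00000169583, chromosome 9, 136994635 to 136996803, minus strand) encodes the member linked to late-endosomal recycling and to the secreted activation of transglutaminase 2. The 4 BPH-1 libraries had an FPKM of 1.11, 5.91, 0.568 and 4.42, from 33, 174, 17 and 133 reads. The 4 DU145 libraries had 3.49, 2.13, 3.49 and 2.47. The 4 PC3 libraries had 1.96, 3.14, 3.4 and 2.88. BPH-1 libraries 2 and 4 were above every DU145 and PC3 library, and BPH-1 libraries 1 and 3 were below every one of them. The BPH-1 mean of 3.0 ± 2.58 (SD, n = 4) therefore lay beside 2.90 ± 0.701 (SD, n = 4) in DU145 and 2.85 ± 0.626 (SD, n = 4) in PC3.

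No difference between lines was detected for CLIC3, and against BPH-1 the log2 values have the opposite sign to the differences of the means. The log2 fold change was 0.19 in PC3 against BPH-1 (95% confidence interval -0.80 to 1.17, limma adjusted p = 0.716), 0.21 in DU145 against BPH-1 (-0.77 to 1.18, limma adjusted p = 0.698) and -0.02 in PC3 against DU145 (-0.45 to 0.42, limma adjusted p = 0.952). The wide intervals against BPH-1 come with a ratio of 10.4 between its highest and lowest library, a spread that 0.51% of genes compared in BPH-1 matched or exceeded. The ratio was 9.97 with the GC trend divided out, and the depth of the BPH-1 libraries differed little, between 15262887 and 15606584 reads. S100A9 and S100A8, which are among the 11 genes that split DU145 and were singled out after their values were seen, had 717, 5603, 781 and 2976 reads and 82, 599, 93 and 373 reads in the same 4 libraries. Other genes of the 11 were more even there, with 271, 295, 256 and 225 reads of PTPRC and 362, 400, 352 and 308 of LYZ. Whether the S100A8 and S100A9 reads share a source with the CLIC3 reads was not tested.

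**Figure D3:**
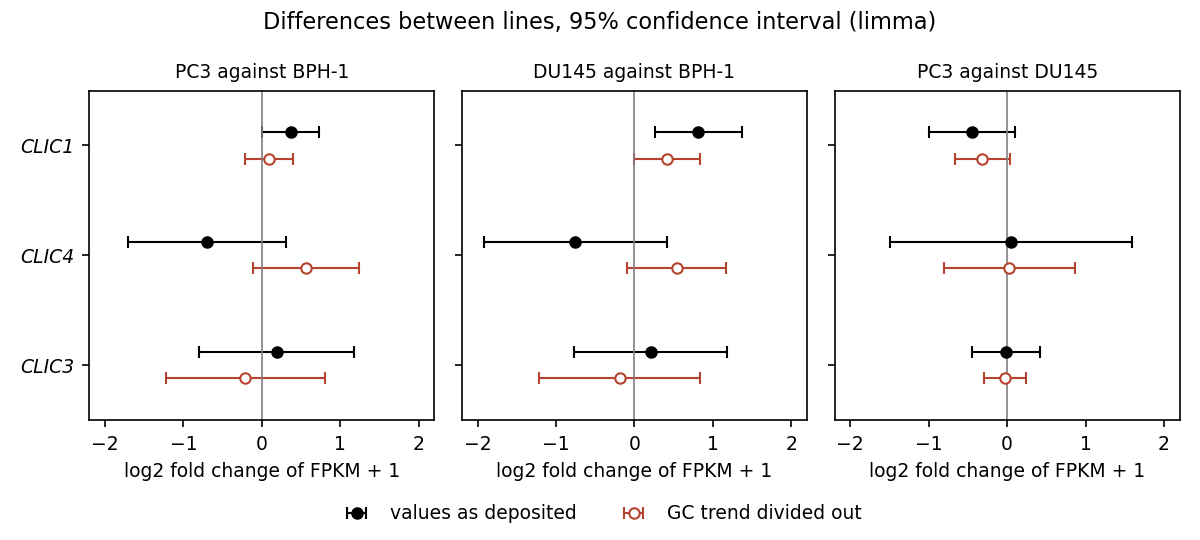
Log2 fold change of FPKM + 1 (horizontal axis) of CLIC1, CLIC4 and CLIC3 in the 3 comparisons, with 95% confidence intervals from limma, for the values as deposited (filled) and with the GC trend of each library divided out (open). CLIC1 in DU145 against BPH-1 is at 0.81 with an interval above 0, CLIC4 against BPH-1 moves from negative to positive values, and the intervals of CLIC3 include 0.

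CLIC2 (ENSG00000155962, chromosome X, 155276211 to 155334657, minus strand), which encodes the ryanodine receptor-binding member, did not pass the filter on low values in any comparison. It had 2, 5, 2 and 8 reads in BPH-1, 0, 3, 1 and 1 reads in DU145 and 0, 1, 0 and 0 reads in PC3. Each BPH-1 library had more CLIC2 reads than each PC3 library, and the BPH-1 and DU145 libraries overlapped. Per read of depth, BPH-1 had 14.7 times the CLIC2 of PC3 with a 95% counting interval of 2.30 to 615, and 3.38 times that of DU145 with an interval of 1.20 to 11.7. These intervals cover counting error only. The two-sided exact permutation test of BPH-1 against PC3 gave p = 0.0286, the smallest that 4 against 4 allow, and without the filter limma gave an adjusted p of 0.0504. In these bulk samples, fewer cells with a transcript and less of it per cell cannot be told apart.

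CLIC5 (ENSG00000112782, chromosome 6, 45898451 to 46080395, minus strand in GENCODE 29), which encodes the ezrin-associated member of stereocilia and podocytes, was read mainly in BPH-1 and there unevenly. The 4 BPH-1 libraries had 0, 78, 8 and 20 reads, or an FPKM of up to 0.418. DU145 had 0, 4, 1 and 1 reads and PC3 had 0, 0, 1 and 0 reads. Libraries 2 and 4 were thus the highest BPH-1 libraries for CLIC2, CLIC3 and CLIC5 alike. The permutation test of CLIC5 in BPH-1 against either PCa line gave an exact two-sided p = 0.143. Its gene length was taken from the steps of the values, 12233 bases, because the length in GENCODE 29 did not give whole reads. This sets the reads and not the FPKM.

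CLIC6 (ENSG00000159212, chromosome 21, 34669389 to 34718227, plus strand), the member known from secretory epithelia, had 3 reads in DU145 library 1 and 0 reads in the other 11 libraries. At this depth 3 reads of CLIC6 are worth an FPKM of 0.0477 to 0.060, which is the level that a count of 0 allows. CLIC6 was thus not detectable in BPH-1 and PC3.

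**Figure D4:**
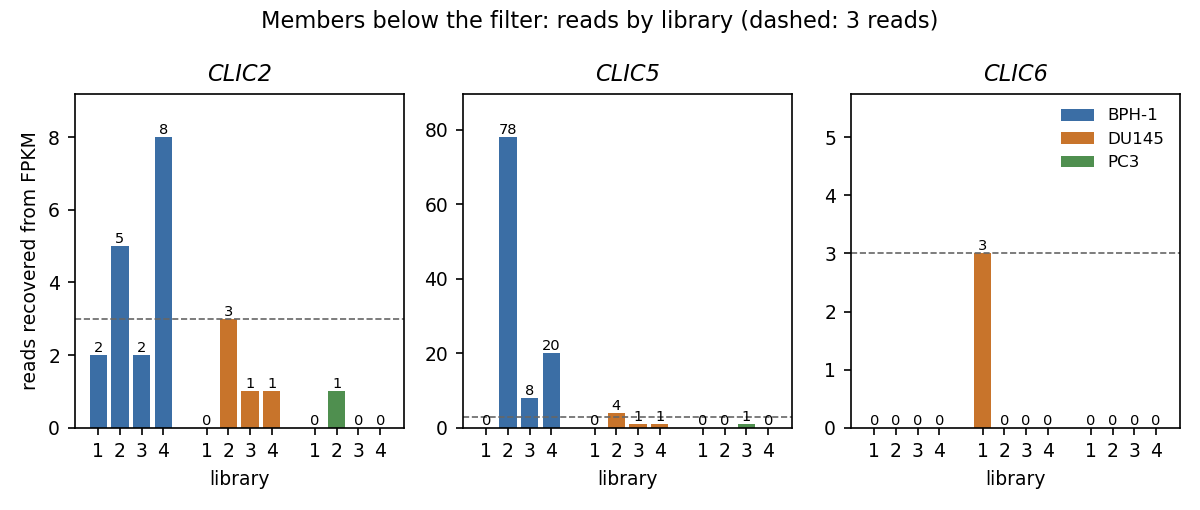
Reads (vertical axis, from 0) of CLIC2, CLIC5 and CLIC6 in each library (horizontal axis, libraries 1 to 4 of BPH-1, DU145 and PC3), recovered from the FPKM, with a dashed line at 3 reads. BPH-1 libraries 2 and 4 have the tallest bars for CLIC2 (5 and 8 reads) and CLIC5 (78 and 20), and CLIC6 has reads in DU145 library 1 alone.

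CLIC1 and CLIC4 have processed pseudogenes that could take up or give reads. CLIC1P1 (chromosome 12) is 90.6% identical to CLIC1 transcripts and held between 1.92% and 2.61% as many reads as CLIC1. CLIC4P1 (chromosome 9) is 96.6% identical to CLIC4 and held 1.36% to 3.47% as many reads, CLIC4P3 (chromosome X) held 0.0638% to 0.356%, and CLIC4P2 (chromosome 19) had 0 reads. CLIC1P1 passed the threshold in the same comparison as its parent, higher in DU145 than in BPH-1 by 0.76 (limma adjusted p = 0.0251), and also in PC3 against BPH-1 by 0.44 (limma adjusted p = 0.0334). How the authors placed reads that match several loci is not given in the sources used here, so the values of parent and pseudogene are uncertain, by an amount that these reads do not measure.

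Neighbours of the members were compared in the same way. The fold changes of neighbours, and of the listed genes below, are from the values as deposited and are not given with the GC correction. CLIC1 overlaps DDAH2 on the same strand by 37 bases, whose reads cannot be told apart, and DDAH2, which encodes a dimethylarginine hydrolase-like protein, was higher in PC3 (log2 fold change 1.72, limma adjusted p = 5.08e-06) and DU145 (1.42, limma adjusted p = 0.000144) than in BPH-1. The mismatch repair-related gene MSH5, 185 bases away from CLIC1, was higher in DU145 than in BPH-1 (0.67, limma adjusted p = 0.00255). Next to CLIC3, PAXX, a DNA repair factor gene at 651 bases, was higher in DU145 (1.0, limma adjusted p = 0.00312) and PC3 (0.46, limma adjusted p = 0.00427), and the lipid transporter gene ABCA2 on the other side was higher by 2.53 in DU145 (limma adjusted p = 5.68e-06). RAB39B next to CLIC2 stood at 6.64 ± 1.18 FPKM (SD, n = 4) in DU145 against 0.0969 ± 0.00856 (SD, n = 4) in BPH-1, while CLIC2 had 5 reads in the 4 DU145 libraries together. SRRM1, a splicing factor gene beside CLIC4, was lower in DU145 by -1.40 (limma adjusted p = 0.00161), and ENPP4 beside CLIC5 was lower in PC3 (-1.36, limma adjusted p = 0.000149) and DU145 (-0.93, limma adjusted p = 0.0123) than in BPH-1. MPIG6B beside CLIC1 and H2AFB2 beside CLIC2 did not pass the filter. CLIC2 overlaps 3 processed pseudogenes, of which 1 is on its own strand, and the use of strand is not given, so reads of the shared bases cannot be told apart.

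CLIC4, CLIC5 and CLIC6 lie in paralogous clusters with RCAN genes (calcineurin regulators) and RUNX genes (transcription factors). Of these 6 neighbours 5 were tested, and in each of the 3 comparisons 2 were higher and 1 lower, beside 67.6%, 62.6% and 48.2% of all genes called. The mean FPKM of RUNX3 beside CLIC4 was 0.0175 ± 0.0141 (SD, n = 4) in BPH-1, 5.30 ± 1.37 (SD, n = 4) in DU145 and 2.48 ± 0.0585 (SD, n = 4) in PC3, with adjusted limma p-values of 1.39e-06 and 5.16e-08 against BPH-1. RCAN1 beside CLIC6 was higher in DU145 (0.63, limma adjusted p = 0.0422) and PC3 (0.53, limma adjusted p = 0.00621) than in BPH-1, with CLIC6 itself not detectable in BPH-1 and PC3. RUNX1, on the other side of CLIC6, was lower in PC3 than in BPH-1 by -0.41 (limma adjusted p = 0.0231) and not called in DU145 (0.21, limma adjusted p = 0.515). RUNX2 beside CLIC5 was lower in DU145 than in BPH-1 by -0.45 (limma adjusted p = 0.00134). The median log2 fold change of the tested neighbours was 0.34 in PC3 and 0.21 in DU145 against BPH-1 and -0.10 in PC3 against DU145, beside -0.13, -0.03 and -0.05 over all genes tested.

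Known partners of CLIC proteins passed the threshold against BPH-1 at about the share of all genes tested. Of 29 listed partners, 26 were tested against BPH-1. In PC3, 4 were higher and 11 lower, beside 27.2% higher and 40.5% lower of all genes. In DU145, 4 were higher and 13 lower, beside 30.3% and 32.3% of all genes. In PC3 against DU145, 24 were tested, of which 6 were higher and 3 lower in PC3. Of all genes in that comparison, 48.2% were called, 20.0% higher and 28.3% lower. Set against the 67.6% and 62.6% of all genes past the threshold, 15 of 26 and 17 of 26 partners are near the share of all genes. The median log2 fold changes of the list were -0.23, -0.28 and 0.05, beside -0.13, -0.03 and -0.05 over all genes.

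Among the cortical linkers that bind CLIC4 and CLIC5, ezrin (EZR) fell from 154 ± 28.0 (SD, n = 4) FPKM in BPH-1 to 72.0 ± 13.9 (SD, n = 4) in DU145 and 81.7 ± 17.2 (SD, n = 4) in PC3. Radixin (RDX) fell from 13.7 ± 1.82 (SD, n = 4) to 2.93 ± 1.84 (SD, n = 4) and 2.08 ± 1.13 (SD, n = 4), and moesin (MSN) stayed abundant with 220 ± 19.9, 171 ± 19.2 and 248 ± 28.7 (SD, n = 4 each). MSN was lower in DU145 than in BPH-1 by -0.36 (limma adjusted p = 0.0465) and higher in PC3 than in DU145 by 0.53 (limma adjusted p = 0.0118). In PC3 against BPH-1 it was not called (0.17, limma adjusted p = 0.202). The decreases of EZR and RDX had limma adjusted p-values of at most 0.00119 in either line. Podocalyxin (PODXL) was lower than in BPH-1 by -2.02 in DU145 (limma adjusted p = 2.85e-06) and by -0.33 in PC3 (limma adjusted p = 0.0412). The scaffold SLC9A3R2 was higher in PC3 than in BPH-1 by 2.66 (limma adjusted p = 3.15e-07) and lower in DU145 by -0.59 (limma adjusted p = 0.0252). MYO6, the myosin of the stereociliary complex of CLIC5, was lower, with log2 fold changes of -2.16 in PC3 and -2.29 in DU145 and limma adjusted p-values of 3.03e-05 and 3.49e-05. MYO6 was uneven within the lines, with an FPKM of 0.0567 to 0.701 in DU145, 0.113 to 0.864 in PC3 and 4.37 to 9.29 in BPH-1. PTPRQ of the same complex had 0 reads in all libraries.

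Of the partners in CLIC4 signalling, RHOA was higher in PC3 by 1.26 (limma adjusted p = 4.18e-06) and in DU145 by 0.39 (limma adjusted p = 0.0479). SMAD3, whose phosphorylated form nuclear CLIC4 protects, was higher by 0.73 in PC3 and 1.03 in DU145 (limma adjusted p = 0.000663 and 0.000301). SMAD2 of the same list was lower in PC3 by -0.33 (limma adjusted p = 0.0104) and not called in DU145 (0.16, limma adjusted p = 0.470). The phosphatase gene PPM1A was lower by -1.33 in PC3 and -1.35 in DU145 (limma adjusted p = 4.37e-05 and 7.75e-05). Profilin 1 (PFN1) did not pass the threshold, with 0.63 and 0.76. The anchoring protein AKAP9, a partner of several CLICs, had 4.72 ± 1.30 (SD, n = 4) FPKM in BPH-1 against 0.121 ± 0.0876 (SD, n = 4) in DU145 and 0.234 ± 0.206 (SD, n = 4) in PC3.

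For CLIC3, partners of the recycling route were compared. RAB25, a small GTPase that sorts integrins, had 7.87 ± 1.10 (SD, n = 4) FPKM in BPH-1, 1 read in the 4 PC3 libraries and 0 reads in DU145. MMP14, a membrane-anchored matrix metalloproteinase and a cargo of the CLIC3 route, was lower in DU145 than in BPH-1 by -2.79 (limma adjusted p = 2.03e-05). It was higher in PC3 than in DU145 by 2.26 (limma adjusted p = 2.58e-05). The integrin subunits ITGA5 and ITGB1 passed the threshold in no comparison. TGM2, the transglutaminase that secreted CLIC3 activates, had 0.234 ± 0.0496 (SD, n = 4) FPKM in BPH-1, 26.6 ± 2.65 (SD, n = 4) in DU145 and 15.6 ± 3.39 (SD, n = 4) in PC3, the largest change of the list on the log2(FPKM + 1) scale (limma adjusted p = 3.70e-08 and 7.03e-08 against BPH-1). The CLIC2 partners RYR1 and RYR2 were highest in BPH-1, with 0.599 ± 0.188 and 0.546 ± 0.130 (SD, n = 4 each) FPKM, and the CLIC6 partner DRD3 had 0 reads. DRD2 of the same list had 29 reads in BPH-1, 5 in DU145 and 0 in PC3.

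Genes that share the glutathione transferase fold or the thiol chemistry of CLICs were listed as 21 genes. GSTT1 was not analysed here, and 14 of the others were tested against BPH-1. In PC3, 6 were higher and 8 lower, and in DU145, 7 were higher and 5 lower. In PC3 against DU145, 13 were tested, with 2 higher and 5 lower. Over all genes, 67.6%, 62.6% and 48.2% were called in these comparisons. The medians were -0.44, 0.35 and 0.19, beside -0.13, -0.03 and -0.05 over all genes. The omega class transferase GSTO1, the nearest relative of CLICs in fold, was lower in PC3 than in BPH-1 (-0.96, limma adjusted p = 6.21e-05) and DU145 (-1.22, limma adjusted p = 0.000786). The glutaredoxin gene GLRX2 was higher in DU145 than in BPH-1 (1.64, limma adjusted p = 3.80e-05) and lower in PC3 than in DU145 (-2.27, limma adjusted p = 1e-05), and thioredoxin (TXN) was lower in PC3 than in BPH-1 by -1.30 (limma adjusted p = 0.000245). GLRX, another glutaredoxin gene, was higher than in BPH-1 by 1.32 in PC3 (limma adjusted p = 0.00015) and by 0.75 in DU145 (limma adjusted p = 0.00749). GSTM3 was higher in both PCa lines, by 3.04 in PC3 and 2.7 in DU145 (limma adjusted p = 9.53e-08 and 3.65e-07). GSTT2 and GSTT2B, which were lower in both, are near-identical copies whose reads may be split, so their values are uncertain.

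Genes with the most similar profile over the 12 libraries were sought among 11884 protein-coding genes. The rule had required an absolute log2 fold change over 1, which no member reached, and this condition was dropped after the values were seen. The measure is the root mean square difference of log2(FPKM + 1) around each gene's own mean. For CLIC1 the nearest was TMEM179B (0.0940, beside 0.449 for the deviation of CLIC1 itself), with 10.6, 21.3 and 14.1 FPKM in BPH-1, DU145 and PC3. For CLIC4 it was ADGRG6 (0.182, beside 0.905), whose FPKM in DU145 was 1.35, 6.93, 0.351 and 7.67. For CLIC3 it was MVP (0.310, beside 0.557), with 3.67, 8.49, 3.04 and 5.52 in BPH-1.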

How the data were processed

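RNA-sequencing of 12 libraries, 4 each of BPH-1, DU145 and PC3, was analysed. The submitters' processing notes name CASAVA 1.8, HISAT2 2.1.0, edgeR and GRCh38, with no roles or filters, and strand use is not given in the sources used here. The authors deposited normalized values of 58302 genes in the form of FPKM (reads divided by gene length and library total), without naming the unit. Their gene length was the summed length of distinct GENCODE 29 exons, since it made 92.0% to 93.4% of low values whole reads, against 15.7% to 18.6% with merged exons. A length was lacking for 263 genes, which were not tested.

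Reads recovered from the FPKM steps (depth 12950664 to 16309560) served for the filter, the limits and voom. Limma 3.58.1 (R 4.3.3, intensity trend) was fitted to log2(FPKM + 1), with only the compared lines, over genes that reached 10 reads, set to the median depth, in 4 libraries and 15 in all. Fold changes on this scale understate changes of low genes. P-values were adjusted by Benjamini-Hochberg over all genes tested, and permutation tests were exact and two-sided. Python 3.11.15, numpy 2.4.6, pandas 2.3.3, Biopython 1.88 and matplotlib 3.10.9 were used. On simulated data with 100 genes changed 2-fold, 88%, 89% and 93% were recovered in PC3 against BPH-1 (16331 genes), DU145 against BPH-1 (16445 genes) and PC3 against DU145 (16088 genes). The 18 replicate pairs differed by more than counting noise (chi-square per gene 17.4 to 216), and none was a duplicate. Recovery of a 2-fold change at this spread was not tested, so 88%, 89% and 93% are not recovery rates for the deposited libraries.

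The members and lists were chosen with earlier results of these data known. Named are the 6 members, genes whose name starts with CLIC, neighbouring and overlapping genes, genes of like pattern and, from 3 lists (29 partners, 21 fold and redox genes, 6 cluster genes), those in contact with a member by role and the up to 4 called genes of largest change. Alternatives were other scalings, pseudocount, filters, voom, 1 fit of all lines, a replicate block, leaving out each library, and a GC correction (a spline with 5 degrees of freedom per library). Leaving out pairs of DU145 libraries was added after the data were seen.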

Additional observations from a re-analysis of the deposited data

Results flagged for a closer look

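Among 31 groups of 4 libraries examined, 4 held a library far from the others. The rate of about 5% given by chance is no guide for groups near 0 reads. In 3 of the 4 groups the value is 1 to 3 reads against 0 in the other libraries of the line, which meets the rule whatever the count. These are CLIC2 in PC3 library 2 (FPKM 0.0202), CLIC5 in PC3 library 3 (FPKM 0.00589) and CLIC6 in DU145 library 1 (FPKM 0.0480). The fourth is the ratio of CLIC1 to CLIC4, which was 27.9 in PC3 library 4 against 3.79 to 7.64 in the other PC3 libraries. The same library had the steepest GC slope of the line (0.223 per 10 points of GC), and with the GC trend divided out its ratio was 11.5, still the highest of PC3. The part of the slope in this value was not tested.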

How the results depend on the processing

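CLIC1 kept its direction in all alternatives, with log2 fold changes of 0.10 to 0.50 in PC3 against BPH-1, 0.41 to 1.17 in DU145 against BPH-1 and -0.80 to -0.09 in PC3 against DU145. In PC3 against BPH-1 the count of CLIC genes called went from 0 to 1 (CLIC1) with the replicate block, with upper-quartile or median-of-ratios scaling and at an unadjusted p under 0.05, and lay between 0 and 1 with 1 library left out (1 without BPH-1 library 4). In DU145 against BPH-1 it went from 1 to 0 with libraries rescaled to the same sum, with the GC correction, without DU145 libraries 1 and 3, with an added absolute log2 fold change over 1 and by the exact permutation test. It was 2 (CLIC1 and CLIC4) without DU145 libraries 2 and 4, and 1 with any single library left out. In PC3 against DU145 it went from 0 to 1 without DU145 libraries 2 and 4 (CLIC1 -0.80, limma adjusted p = 0.0131), and lay between 0 and 1 with 1 library left out. Libraries 1 and 3 hold the highest CLIC1 and lowest CLIC4 values of DU145, and libraries 2 and 4 the reverse. Counts without either pair thus follow from the choice of libraries. The causes of the other changes were not tested.

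CLIC3 and CLIC4, which were not called, changed sign. With the GC correction, CLIC3 was -0.21 in PC3 and -0.19 in DU145 against BPH-1, and CLIC4 was 0.56 and 0.54. Without DU145 libraries 1 and 3, CLIC3 was -0.017 and CLIC4 0.32 in DU145 against BPH-1, and CLIC3 was 0.21 and CLIC4 -1.02 in PC3 against DU145, where CLIC3 was 0.042 with median-of-ratios scaling. Libraries 1 and 3 hold the highest CLIC3 and the lowest CLIC4 values of DU145. With 1 library left out, CLIC3 ranged from -0.17 to 0.54 for PC3 and from -0.16 to 0.56 for DU145 against BPH-1, and from -0.12 to 0.10 between the PCa lines, and CLIC4 from -0.99 to -0.21, from -1.12 to -0.29 and from -0.41 to 0.54 in the same order.

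With an absolute log2 fold change over 1 added, limma called 4424 genes in PC3 against BPH-1, 4895 in DU145 against BPH-1 and 3165 in PC3 against DU145, against 11058, 10691 and 7820, and the stricter filter left 5211 in PC3 against DU145. Of 12 pairs of libraries with the same number in different lines, 2 had deviations correlated above 0.1 (range -0.705 to 0.559), so the numbers were not taken to pair the libraries. With the replicate block, CLIC1 in PC3 against BPH-1 was 0.37 (limma adjusted p = 0.0161), and 10711, 10156 and 6654 genes were called in the same order of comparisons. At this depth, CLIC2, CLIC5 and CLIC6 cannot be compared beyond their counts.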

Other observations

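Among the 11 genes read in DU145 libraries 1 and 2 and at 0 in libraries 3 and 4, which were singled out after their values were seen, 7 had 0 reads in every PC3 library. FCGR3B, an Fc receptor gene of neutrophils, had 244 and 269 reads in DU145 libraries 1 and 2 and 120 to 290 in BPH-1. LYZ, the lysozyme gene, had 326 and 365 reads and 308 to 400 in BPH-1, and MNDA, a myeloid nuclear antigen gene, had 207 and 238 and 206 to 259. DU145 libraries 3 and 4 held 2 genes with at least 50 reads that were at 0 in libraries 1 and 2. Over the list of 10 markers of other cell types, the summed FPKM was 8.12 to 13.0 in BPH-1, 6.40 to 12.3 in DU145 and 11.9 to 19.9 in PC3. Most of the sum in PC3 came from CD68 (6.86 to 13.5 FPKM) and COL1A1 (2.99 to 3.84). CD3E was at 0 throughout, DES at 0 in BPH-1, and LUM and PTPRC at 0 in PC3. What part these reads have in the CLIC values was not tested.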
